A study of Mus musculus with 8 samples.

Results

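The insulin-like growth factor axis was followed through 10 genes: the ligands Igf1 and Igf2, the receptors Igf1r and Igf2r, the adaptor Irs1 and the binding proteins Igfbp2, Igfbp3, Igfbp4, Igfbp5 and Igfbp6. They were found by gene symbol in the annotation of the array, which names 15094 genes on 21582 probes. The 10 genes held 12 probes, because Igf1r had 3. Enough arrays gave a value for 7 of the 12 probes, each of a different gene, to be tested, against 15345 of all probes.

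Insulin-like growth factors are secreted peptides that act on the receptor tyrosine kinase encoded by Igf1r and support the survival and growth of neural progenitors and their progeny. The receptor signals through adaptor proteins such as Irs1 to the kinases PI3K and Akt and to the Ras to MAPK cascade. Igf2r binds Igf2 without signalling in this way and carries it to the lysosome, so it acts as a sink for the ligand. The binding proteins hold the ligands outside the cell and can withhold them from the receptor or deliver them to it. Igf2 is imprinted: in most tissues it is transcribed from the paternal chromosome, while its neighbour H19, a noncoding RNA that shares its enhancers, is transcribed from the maternal one.

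The RNA came from neurospheres, balls of neural stem cells and progenitors that float in culture, which were raised from mouse cortex taken at gestational day 12.5. One group met ethanol at 320 mg/dl for 5 days of proliferation and then differentiated for 3 days without ethanol in the presence of fibroblast growth factor, after epidermal growth factor and leukaemia inhibitory factor had been withdrawn. The control group went through the same steps with no ethanol. During proliferation both groups grew in serum-free medium with basic fibroblast growth factor at 20 ng/ml, epidermal growth factor at 20 ng/ml and leukaemia inhibitory factor at 0.15 ng/ml. That medium also held heparin, progesterone and an insulin, transferrin and selenium supplement, so that neither group was free of added insulin. Control and exposed RNA were hybridised together on 8 two-colour arrays, with the exposed RNA in Cy3 on replicates 1 to 4 and in Cy5 on replicates 5 to 8. The labels do not tell whether each array had a culture of its own. The p-values thus rest on differences among arrays that may be technical.

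Each array gave 1 log2 ratio per probe and no level, and 16274 to 18802 probes per array had a ratio that could be computed. The array medians of the deposited ratios ran from -0.435 to -0.324 with ethanol in Cy3 and from 0.023 to 0.516 with ethanol in Cy5, and every array was centred on its own median. The labels do not settle which channel was divided by which. Each probe is therefore described by a shared part, the mean over both orientations, and a turning part, which is the mean of the Cy5 orientation minus the mean of the Cy3 orientation, divided by 2. If the ratios are condition over condition, the ethanol difference lies in the shared part and the dye effect in the turning part, and if they are dye over dye it is the other way round. Signs are those of the centred ratios, with neither orientation reversed. Centring changed the sign of some small values, such as Igfbp4 on replicate 2 (0.32 centred, -0.12 as deposited). No gene is called higher or lower with ethanol. In ratios of bulk RNA, fewer cells of a type and less RNA per cell cannot be told apart.

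The cell identity could not be checked by level, since ratios carry none. Of 15 probes for neural progenitor markers 14 gave enough values to be tested, where the share over all probes was 71.1%. It was 9 of 12 for neuron markers, 7 of 9 for astrocyte, 8 of 11 for oligodendrocyte lineage, 7 of 11 for microglia and macrophage, 8 of 12 for endothelial and mural, 6 of 13 for meningeal fibroblast and 4 of 7 for choroid plexus markers. No marker of any of the 8 cell type lists passed an adjusted p of 0.05 in limma in either part. Over all probes tested 0.0% passed in the shared part and 1.56% in the turning part. At an unadjusted p under 0.05, between 0 and 2 probes per list passed in the shared part and between 0 and 2 in the turning part. Over all probes tested it was 13.9% and 13.8%.

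Of the 7 member probes tested, Igf2 changed between the orientations and no other member passed. In the turning part 1 of 7 passed an adjusted p of 0.05 in limma, against 1.56% of all probes tested, and 0.789% passed with a negative sign as Igf2 did. In the shared part 0 of 7 passed, and over all probes 0.0% did, the smallest adjusted p being 0.136. At an unadjusted p under 0.05, 3 of 7 member probes passed in the shared part (Igf1r, Igfbp2 and Igfbp4) against 13.9% of all, and 3 of 7 in the turning part (Igf1, Igf2 and Igf1r) against 13.8% of all. The median shared part was 0.64 over the 7 member probes and -0.06 over all probes tested, and the median turning part was -0.01 and 0.11.

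**Figure D1:**
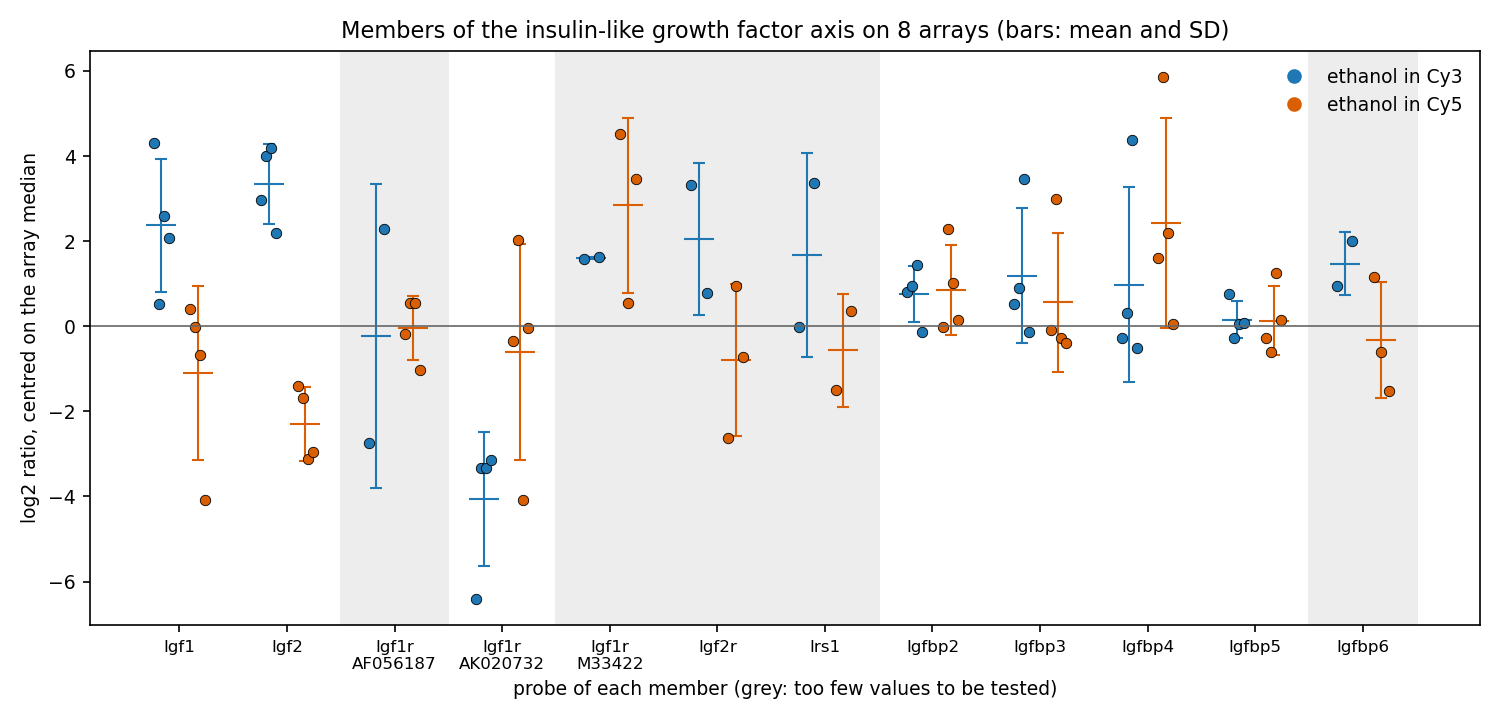
Centred log2 ratio (vertical axis) of the 12 member probes on the 8 arrays, blue for ethanol in Cy3 and orange for ethanol in Cy5, with the mean and SD of each orientation. Igf2 lies between 2.19 and 4.20 on every blue array and between -3.11 and -1.41 on every orange one, while the 5 probes on a grey ground had too few values to be tested.

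Igf2, the fetal ligand, had centred log2 ratios of 2.97, 4.00, 4.20 and 2.19 on replicates 1 to 4 and of -1.41, -1.70, -3.11 and -2.97 on replicates 5 to 8. All 4 arrays with ethanol in Cy3 were high and all 4 with ethanol in Cy5 were low, and the orientations did not overlap, centred or as deposited. Within each array Igf2 stood at the 91.7th to 99.1st percentile of all ratios in the first orientation and at the 3.69th to 16.1st percentile in the second. The orientation means were 3.34 ± 0.94 (SD, n = 4) and -2.30 ± 0.87 (SD, n = 4).

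The turning part of Igf2 was -2.82 ± 0.36 (SE, n = 8 arrays; limma, adjusted p = 0.00218), which is 7.05-fold on the linear scale. Its size exceeded that of 99.0% of all probes tested. An exact two-sided permutation of the arrays between the orientations gave p = 0.0286, the smallest that 70 regroupings allow. Orientations that do not overlap always give this p, so it adds nothing to that separation. Of all probes with a value on every array, 4.42% lay wholly above with ethanol in Cy3 and 5.61% with ethanol in Cy5. The shared part was 0.52 ± 0.36 (SE; limma, adjusted p = 0.530), and flipping the signs of its 8 array values, in an exact two-sided test, gave p = 0.641. The residual SD of Igf2, 0.90, was below the median of 1.25 over all probes tested. Without the 3 arrays whose codes end in r (replicates 3, 4 and 8) the turning part was -2.78 and no longer passed (limma, adjusted p = 0.0966), and 73 probes in all passed in place of 239.

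**Figure D2:**
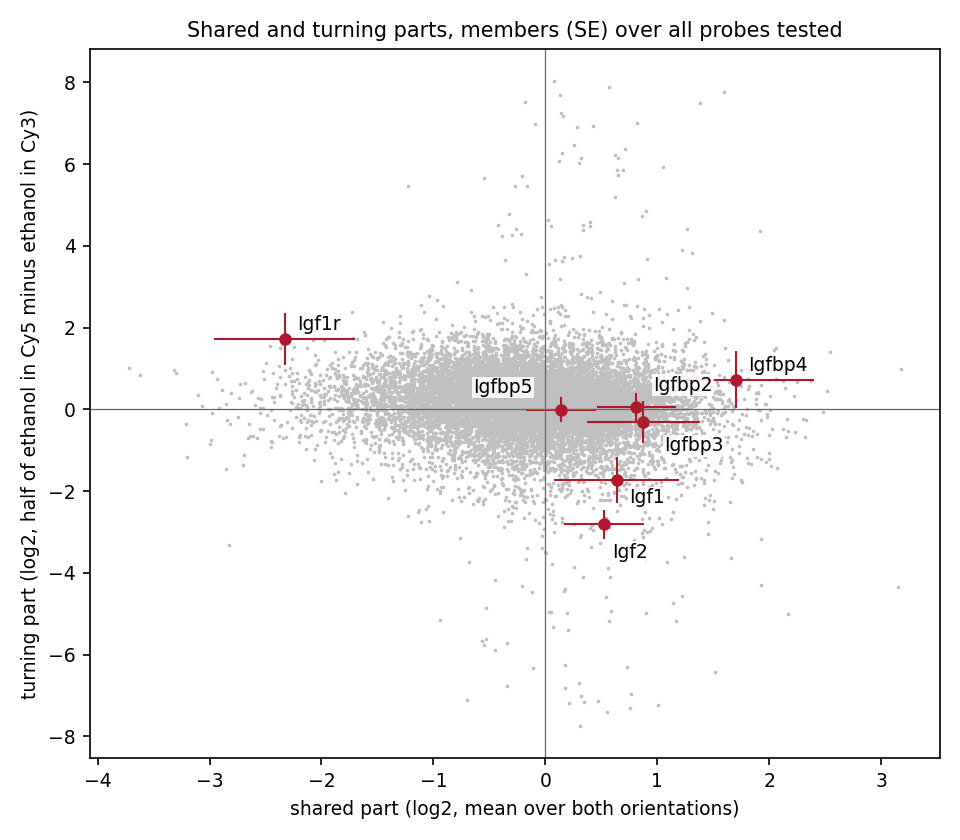
Shared part (horizontal axis, log2) against turning part (vertical axis, log2) of all 15345 probes tested in grey and of the 7 member probes in red, with the SE as bars. Igf2 lies at a turning part of -2.82 and the tested Igf1r probe at a shared part of -2.33, while Igfbp5 lies near the origin.

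Igf1, the ligand that mediates much of growth hormone action after birth, had values of 4.32, 0.53, 2.58 and 2.07 on replicates 1 to 4 and of 0.40, -0.02, -0.67 and -4.10 on replicates 5 to 8. Every array of the first orientation was above every array of the second, as for Igf2, but by only 0.12 between the nearest arrays, replicates 2 and 5. In the values as deposited the orientations of Igf1 overlapped. Of the 7 member probes with a value on all 8 arrays, 2 (Igf1 and Igf2) lay wholly above with ethanol in Cy3, against 4.42% of all such probes. None of the 7 lay wholly above with ethanol in Cy5, as 5.61% of all such probes did. As deposited, without centring, 1 of the 7 (Igf2) did not overlap. The share of all such probes was counted for centred values only, so this count has none to be set against.

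Igf1 varied more within an orientation than Igf2 did. The means were 2.37 ± 1.56 (SD, n = 4) and -1.10 ± 2.05 (SD, n = 4), and the residual SD of 1.82 was at the 80.5th percentile of all probes tested against the 26.3rd for Igf2. Its turning part was -1.73 ± 0.56 (SE; limma, adjusted p = 0.193) and its shared part 0.64 ± 0.56 (SE; limma, adjusted p = 0.634). Neither passed. The shared part of Igf1 was 0.32 without replicate 1 and 1.14 without replicate 8. Whether the turning parts of Igf1 and Igf2 differ from each other was not tested.

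The 3 probes of Igf1r, the receptor tyrosine kinase, did not agree in sign. The probe AK020732 had values of -6.41, -3.34, -3.34 and -3.13 on replicates 1 to 4 and of -0.34, 2.04, -4.08 and -0.04 on replicates 5 to 8. It was low on all arrays with ethanol in Cy3 and on replicate 7, near 0 on replicates 5 and 8 and high on replicate 6 alone, so the orientations overlapped. Its shared part, -2.33 ± 0.63 (SE; limma, adjusted p = 0.207), was larger than that of 99.5% of all probes tested but did not pass, and its turning part was 1.72 ± 0.63 (SE; limma, adjusted p = 0.260).

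The probe M33422 of Igf1r had no value on replicates 1, 2 and 8. It read 1.58 and 1.62 on replicates 3 and 4 and 4.51, 0.55 and 3.45 on replicates 5 to 7, so that all 5 values were positive where AK020732 was negative on 7 of 8 arrays. The probe AF056187 read -2.75 and 2.30 on replicates 1 and 2 and -0.18, 0.55, 0.54 and -1.04 on replicates 5 to 8, with both signs in each orientation. With a looser rule of 2 arrays per orientation, the shared part of M33422 was 2.22 ± 0.65 (SE; limma, adjusted p = 0.293) and that of AF056187 was -0.13 ± 0.69 (SE; limma, adjusted p = 0.954). No single direction can be given for Igf1r from these probes.

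Igf2r, the receptor that clears Igf2, had 5 values: 3.31 and 0.79 on replicates 2 and 4, and -2.62, 0.95 and -0.72 on replicates 6 to 8. Both values with ethanol in Cy3 were positive, and the values with ethanol in Cy5 had both signs and overlapped them. By the looser rule the turning part of Igf2r was -1.42 ± 0.68 (SE; limma, adjusted p = 0.436).

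Irs1, the adaptor between the receptor and PI3K, had 4 values: -0.01 and 3.37 on replicates 2 and 4, and -1.50 and 0.36 on replicates 5 and 7. On replicate 6 Irs1 held the highest value its table can hold, which was taken as missing. The highest of the 4 values was on replicate 4 and the lowest on replicate 5, and the values of the orientations overlapped. By the looser rule the shared part of Irs1 was 0.56 ± 0.74 (SE; limma, adjusted p = 0.795) and the turning part -1.12 ± 0.74 (SE; limma, adjusted p = 0.594).

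The receptor and adaptor probes that could not be tested also had coarse ratios. A deposited value is a constant for its array plus the logarithm of a ratio with 3 decimals, so that the ratio can be recovered. For Irs1 the recovered ratios were 0.4, 6.00, 0.4 and 1.33 on replicates 2, 4, 5 and 7. For Igf2r they were 4.00, 1.0, 0.222, 2.0 and 1.0 on replicates 2, 4, 6, 7 and 8.

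Most of these are ratios of whole numbers no larger than 6, within 0.001 for ratios up to 1 and within 0.001 times the ratio above that. All 4 values of Irs1 met this, as were 4 of 5 of Igf2r, 4 of 6 of the Igf1r probe AF056187 and 2 of 5 of M33422. Over the 5 member probes not tested it was 14 of 25 values, or 56.0%, against 29.0% over all probes not tested. Over the 7 tested member probes it was 3 of 56 values (2 of Igf1 and 1 of Igfbp5), or 5.36%, against 7.3% over all probes tested. Those of Igf1 were on replicates 3 and 5, with recovered ratios of 4.00 and 1.5. Replicate 5 was also 1 of the 2 nearest arrays between the orientations of Igf1. Igf2 had none. When the same ratios were shifted by 3%, 0.874% of the values of untested probes and 1.73% of those of tested probes met the tolerance. Of the member values, 0 of 25 of the untested probes met the shifted ratios. For the tested member probes it was 3 of 56, or 5.36%, the same as without the shift.

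Among the binding proteins, Igfbp2, which is made by neural progenitors and glia, had values of 0.81, 0.94, 1.45 and -0.13 on replicates 1 to 4 and of -0.01, 2.29, 1.02 and 0.14 on replicates 5 to 8. It was highest on replicates 6 and 3, near 0 on replicates 4, 5 and 8, and the orientations overlapped. Its shared part was 0.81 ± 0.35 (SE; limma, adjusted p = 0.342) and its turning part 0.05 ± 0.35 (SE; limma, adjusted p = 0.972).

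Igfbp3, the main carrier of the ligands in blood, had values of 0.53, 0.90, 3.47 and -0.14 on replicates 1 to 4 and of -0.08, 3.00, -0.27 and -0.40 on replicates 5 to 8. Replicates 3 and 6 stood above the other 6 arrays, which lay between -0.40 and 0.90. The shared part of Igfbp3 was 0.88 ± 0.51 (SE; limma, adjusted p = 0.465), and without replicates 3 and 6 it was 0.09.

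Igfbp4, which binds both ligands and is cut by the protease encoded by Pappa, had values of -0.27, 0.32, 4.38 and -0.52 on replicates 1 to 4 and of 1.59, 5.86, 2.20 and 0.06 on replicates 5 to 8. Replicates 6 and 3 were again the highest, and the orientations overlapped. Its shared part was 1.70 ± 0.70 (SE; limma, adjusted p = 0.320), above 97.2% of all probes in size, and 0.56 without replicates 3 and 6. Its residual SD of 2.38 was at the 94.1st percentile of all probes tested.

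Igfbp2, Igfbp3 and Igfbp4 thus had their highest values on the same pair of arrays, 1 of each orientation. Replicates 3 and 6 were the highest of the 8 arrays for 3 of 7 member probes, against 6.37% of all probes with a value on every array. This pattern was noticed in the values and has no test. The 2 arrays do not share an orientation, and their codes, a1r and b4, do not share a number. In the fit with array weights, which counts noisier arrays less, replicate 6 had the lowest weight of the 8 arrays, 0.67. Replicate 3 had 1.08. On replicates 3 and 6 the marker medians were low on both arrays for astrocytes (-1.37 and -0.81) and choroid plexus (-0.91 and -0.96), and positive on both for neural progenitors (0.42 and 0.65) and neurons (0.43 and 0.18). They differed in sign for the oligodendrocyte lineage (-0.13 and 0.39), microglia and macrophages (0.51 and -0.15), endothelial and mural cells (-0.31 and 1.17) and meningeal fibroblasts (-0.38 and 0.50). On the other arrays the medians ran from -0.62 to 1.19 for astrocytes and from -0.92 to 0.95 for choroid plexus. They ran from -0.05 to 0.82 for neural progenitors and from -1.46 to 0.43 for neurons. The part of these cell types in the binding protein values was not tested.

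**Figure D3:**
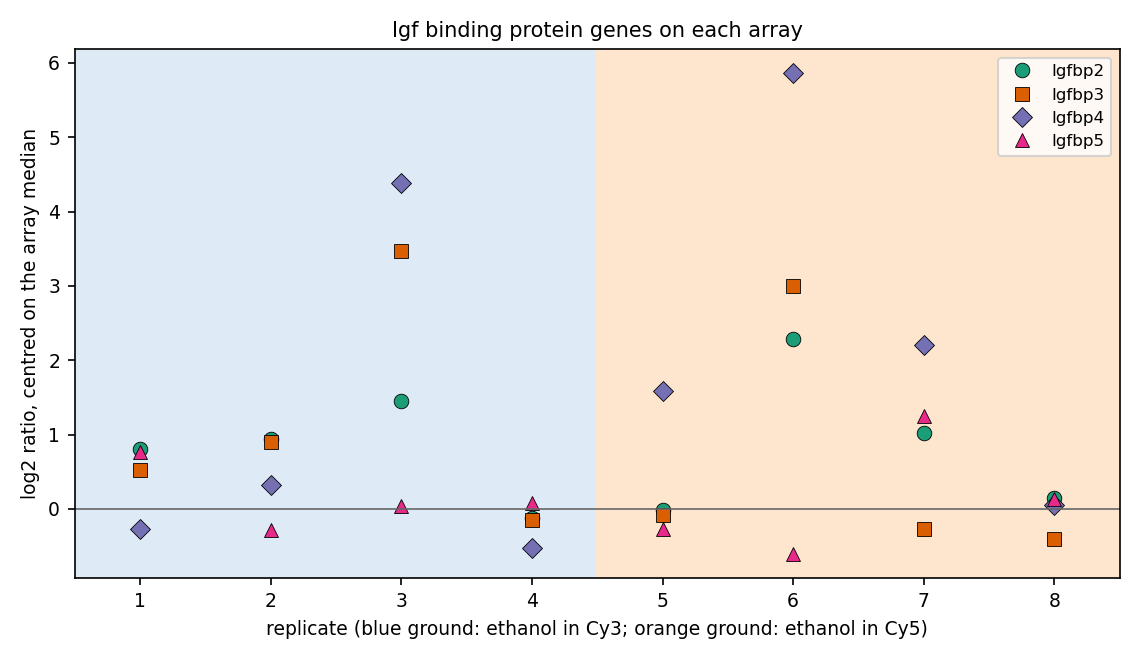
Centred log2 ratio (vertical axis) of Igfbp2, Igfbp3, Igfbp4 and Igfbp5 on each array (horizontal axis, replicates 1 to 8), with ethanol in Cy3 on the blue ground and in Cy5 on the orange one. Igfbp2, Igfbp3 and Igfbp4 peak on replicates 3 and 6, where Igfbp5 reads 0.04 and -0.60.

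Igfbp5, which lies beside Igfbp2 in the genome, did not share that pattern. It had values of 0.76, -0.28, 0.04 and 0.09 on replicates 1 to 4 and of -0.27, -0.60, 1.25 and 0.14 on replicates 5 to 8. It had the smallest spread of the tested members, with a residual SD of 0.65 at the 12.4th percentile of all probes tested. The shared part was 0.14 ± 0.31 (SE; limma, adjusted p = 0.866) and the turning part -0.01 ± 0.31 (SE; limma, adjusted p = 0.994).

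Igfbp6, which binds Igf2 in preference to Igf1, had 5 values: 0.94 and 1.99 on replicates 1 and 2, and 1.16, -0.60 and -1.52 on replicates 5, 6 and 8. The values with ethanol in Cy3 were positive and the others had both signs, with overlap at replicate 5. By the looser rule the turning part was -0.89 ± 0.55 (SE; limma, adjusted p = 0.556). Across the 7 members with a value on every array, 0 kept 1 sign on all 8 arrays, against 3.83% of all such probes.

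The genes beside Igf2 were read next, because the locus is imprinted and its genes lie close together. In the GRCm38.p6 annotation the order among genes with a probe was Tnnt3, Mrpl23, H19, Igf2, Igf2os, Ins2 and Th. H19 had values of 0.52, 0.47, 1.73 and 0.39 on replicates 1 to 4 and of 0.69, 0.44, 1.10 and 1.47 on replicates 5 to 8. It was positive on all 8 arrays, and its orientations overlapped where those of Igf2 did not. The shared part of H19 was 0.85 ± 0.30 (SE; limma, adjusted p = 0.263) and its turning part 0.07 ± 0.30 (SE; limma, adjusted p = 0.947).

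Taken on each array, Igf2 minus H19 was 2.44, 3.53, 2.47 and 1.80 on replicates 1 to 4 and -2.09, -2.13, -4.21 and -4.44 on replicates 5 to 8. The difference does not depend on how an array was centred, and its sign followed the orientation on all 8 arrays. The means were 2.56 ± 0.72 (SD, n = 4) and -3.22 ± 1.28 (SD, n = 4). The comparison was chosen after the values were seen and is given without a test.

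On the other side of Igf2, Ins2, which encodes an insulin, had values of 1.57, 2.90, 0.99 and 1.31 on replicates 1 to 4 and of -0.96, -7.09 and -3.26 on replicates 5, 6 and 8. All of the first were positive and all of the second negative, as for Igf2, but the spread was wider. The turning part of Ins2 was -2.73 ± 0.65 (SE; limma, adjusted p = 0.0883) and did not pass. Th, the enzyme that starts catecholamine synthesis, read 0.93, 2.19 and 1.89 on replicates 1, 2 and 4 and 0.05, -5.02 and -3.95 on replicates 5, 7 and 8, with a turning part of -2.32 ± 0.65 (SE; limma, adjusted p = 0.151). Igf2os, an antisense transcript of Igf2, had a turning part of 0.44 ± 0.43 (SE; limma, adjusted p = 0.723), and its orientations overlapped. The arrays' strand was not checked, since probe sequences were not used here.

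**Figure D4:**
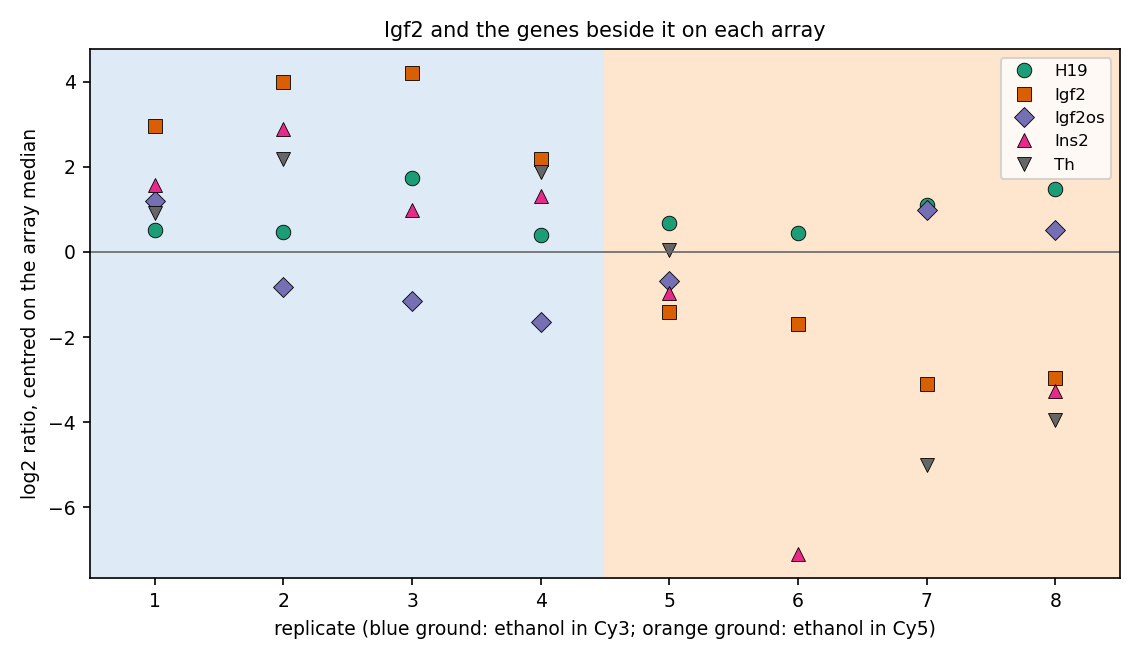
Centred log2 ratio (vertical axis) of H19, Igf2, Igf2os, Ins2 and Th on each array (horizontal axis, replicates 1 to 8), with ethanol in Cy3 on the blue ground and in Cy5 on the orange one. Igf2 and Ins2 are positive on the blue arrays and negative on the orange arrays with a value, while H19 is positive on all 8.

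Igf2 transcripts are abundant in the meninges and the choroid plexus, tissues that border the fetal cortex, and their markers were read beside Igf2. The 6 tested probes of meningeal fibroblast markers had turning parts between -0.39 and 0.12 with a median of -0.08. The 4 tested probes of choroid plexus markers had turning parts between -0.68 and 0.74 with a median of -0.13. Over all 8 marker lists the turning parts ran from -1.51 to 3.82, the highest being of a neural progenitor marker. The part of such cells in the Igf2 values was not tested.

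The probes whose pattern over the 8 arrays was most like that of Igf2 were those of Pdlim4 (r = 0.988), A330102I10Rik (r = 0.971), Il4i1 (r = 0.968), Tap2 (r = 0.964) and Ighg3 (r = 0.960). Their sizes differed widely: the turning part was -0.28 for Pdlim4, -7.18 for A330102I10Rik, -1.60 for Il4i1, -6.78 for Tap2 and -1.18 for Ighg3. Of 10485 probes compared, 92 (0.877%) had r above 0.9 with Igf2 and 86 (0.820%) had r below -0.9. These correlations rest on 8 arrays that fall into 2 orientations.

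Of the rest of the pathway, no ligand or receptor gene outside the members passed in either part. Over all probes tested 0.0% passed in the shared part and 1.56% in the turning part. All 5 tested probes had a negative turning part, from -2.73 to -0.13 with a median of -0.62. Over all probes 6613 of 15345 had a negative turning part, and the median was 0.11. Among the 5 were Ins2 at -2.73 and Insrr, an orphan relative of the insulin receptor, at -1.04 (limma, adjusted p = 0.320). The insulin receptor Insr was at -0.62 (limma, adjusted p = 0.648). Of 10 tested probes for other binding proteins and their proteases 0 passed in limma in either part. At an unadjusted p under 0.05 it was 0 in the shared part and 2 in the turning part, against 13.9% and 13.8% of all probes. The 2 were the lysosomal protease Ctsd, with a turning part of -1.49 (limma, adjusted p = 0.329), and 1 probe of Igfbpl1, with 1.16 (limma, adjusted p = 0.315). The other probe of Igfbpl1 had too few values to be tested. It read 1.24 and 1.31 on replicates 1 and 2 and 0.14 on replicate 6, so it was higher with ethanol in Cy3, against the tested probe.

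Of 17 tested probes of adaptors and brakes 0 passed in limma in either part. At an unadjusted p under 0.05 it was 3 in the shared part and 2 in the turning part, against 13.9% and 13.8% of all probes. Sos1, the exchange factor that activates Ras, was negative on all 6 arrays with a value, with a shared part of -1.85 ± 0.36 (SE; limma, adjusted p = 0.164). Sh2b2, an adaptor of the insulin receptor, had a turning part of 1.97 ± 0.48 (SE; limma, adjusted p = 0.0824), opposite in sign to Igf2. Irs2 and Irs3, relatives of Irs1, had shared parts of -0.43 (limma, adjusted p = 0.766) and -0.45 (limma, adjusted p = 0.567).

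Of 27 tested probes from PI3K to mTOR 0 passed in limma in either part. At an unadjusted p under 0.05 it was 5 in the shared part and 2 in the turning part, against 13.9% and 13.8% of all probes. Pik3r2, a regulatory subunit of PI3K, was positive on 8 of 8 arrays, from 0.37 to 1.56, with a shared part of 0.79 ± 0.28 (SE; limma, adjusted p = 0.263). The 2 probes of the catalytic subunit Pik3ca had shared parts of -1.32 (limma, adjusted p = 0.258) and -0.15 (limma, adjusted p = 0.852). Of 6 tested probes from Ras to MAPK 0 passed in limma in either part. At an unadjusted p under 0.05 it was 1 in each part, against the same shares of all probes. The kinase Araf had a turning part of 1.59 (limma, adjusted p = 0.241). The 2 probes of its relative Braf differed in sign. Their shared parts were -1.40 on 6 arrays (limma, adjusted p = 0.297) and 0.39 on 8 arrays (limma, adjusted p = 0.667).

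Of the 8 tested probes of regulators of these transcripts, 1 passed, in the turning part and with a negative sign. Over all probes tested 1.56% passed in that part, and 0.789% passed with a negative sign. Stat5a, a transcription factor that carries the growth hormone signal to Igf1, had values of 1.88, 3.59 and 3.17 on replicates 2 to 4 and of -1.85, -2.51, -2.43 and -4.01 on replicates 5 to 8. Its orientations did not overlap, as for Igf2. The turning part of Stat5a was -2.79 ± 0.39 (SE; limma, adjusted p = 0.00678) and the shared part 0.09 (limma, adjusted p = 0.936). The RNA-binding proteins Igf2bp1 and Igf2bp3, which bind Igf2 transcripts, had turning parts of 0.37 (limma, adjusted p = 0.804) and -0.04 (limma, adjusted p = 0.976).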

How the data were processed

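The deposited log2 ratios of 8 two-colour arrays were used. Per the labels' protocols, RNA was extracted with Trizol and RNeasy columns, and 1 µg per sample was labelled with the Genisphere 3DNA kit in Cy3 and Cy5. Not given in the sources used here are the scanner, the background correction, the normalization and the direction of the ratio. From the values themselves, each is an array constant plus the log2 of a ratio kept to 3 decimals. Exact 0 and each array's highest value (a ratio of 100000) were taken as missing, which removed 14 and 1 of 96 member values. Each array was centred on its median.

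A probe was tested if each orientation had values on at least 3 arrays. The fit used lmFit and eBayes of limma 3.58.1 in R 4.3.3, with an orientation term, and the threshold was a Benjamini-Hochberg adjusted p of 0.05 over the 15345 probes tested. The number of arrays limits the precision.

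Genes were named from the platform's annotation, updated by Entrez number (15957 matched). Of all probes 16635 had 1 symbol, 113 had several and 4834 had none. No genome build is named, so no coordinates are given. The GRCm38.p6 table served for names and gene order only.

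Named were all members, each listed pathway gene past the threshold and otherwise the 2 per list with the smallest unadjusted p, and the 5 probes most like Igf2. Genes beside Igf2, close relatives of members, the difference from H19, the pair of replicates 3 and 6 and the small whole-number ratios were added after values were seen. The members and lists were chosen with earlier results of these data known. Alternatives were the values as deposited, arrays scaled to 1 spread, exact 0, highest and lowest values treated otherwise, other filters, each array left out, the r arrays left out, array weights, a block by code number and robust eBayes.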

Additional observations from a re-analysis of the deposited data

Results flagged for a closer look

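Igf2 differed between the dye orientations by the test of that difference, with a turning part of -2.82 (limma, adjusted p = 0.00218), and whether this holds the ethanol difference or a dye effect cannot be told apart.

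Among the member probes and H19, some single arrays lay far from the other 3 of their orientation by Dixon's test. Other probes named here are not covered by this list. They were replicate 1 of the Igf1r probe AK020732 at -6.41, replicate 6 of Igfbp3 at 3.00, and replicate 3 of Igfbp4 at 4.38 and of H19 at 1.73. Chance marks about 1 in 20 such groups.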

How the results depend on the processing

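Igf2 kept its sign and its adjusted p under 0.05 in limma in every alternative except the one without the r arrays. There the turning part was -2.78 with an adjusted p of 0.0966, so that 0 member probes passed. The turning part ran from -3.01 to -2.50 over all alternatives and the adjusted p from 0.00112 to 0.0966. In the shared part 0 member probes passed in every alternative. Over all probes 239 passed in the turning part, 417 as deposited, 156 without replicate 4, 152 without replicate 8, 73 without the r arrays and 135 without replicates 3 and 6. The share of negative calls was 121 of 239, and 105 of 417 as deposited, where the turning part over all probes had a median of 0.42 and not 0.11.

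The values that changed sign were all small and not called. The turning part of Igfbp2 ran from -0.19 to 0.19 with 1 array left out, and was -0.078 without replicates 3 and 6 and -0.010 with array weights. That of Igfbp3 ran from -0.72 to 0.067 with 1 array left out, and was 0.0051 as deposited and 0.084 without the r arrays. That of Igfbp5 ran from -0.20 to 0.11 with 1 array left out, and was 0.31 as deposited, 0.012 scaled to 1 spread, 0.092 without replicates 3 and 6 and 0.040 with array weights. The shared part of Igfbp5 ran from -0.046 to 0.26 with 1 array left out. The cause was not tested. Leaving out 1 array leaves 3 in its orientation, and fewer probes are then tested. The labels' replicate numbers differ between the orientations, but 6 of the 8 arrays share a code number across them. With that number as a random block (correlation 0.0089) the turning part of Igf2 was -2.82 with an adjusted p of 0.00212. Signal over background was not used here, so how dim a probe was could not be measured. Missing values and ratios of small whole numbers were the only signs at hand, and neither was tested against intensity.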
